A study of Rattus norvegicus with 6 samples.

Results

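This report follows 33 genes that hepatocytes use to build blood plasma and to run their core metabolism, as measured in RNA libraries of liver sinusoidal endothelial cells. The genes were taken by symbol from a fixed list of plasma protein, urea cycle, glucose and regulator genes, and no measured value enters the rule. All 33 symbols matched exactly 1 of the 32623 genes in the deposited tables. Of these, 32 passed the filter on low counts and A1bg did not.

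The endothelial cells, which line the liver's capillaries with a porous sheet, were primary cells of Han Wistar rats. They were kept in a perfused device that also held the 3 other main liver cell types in primary culture, namely hepatocytes, macrophages and stellate cells. The device ran for 48 h with 1.15 dyn/cm2 of shear stress in both groups, and the pressure was 1 mmHg in the physiological and 12 mmHg in the pathological group. Each group had 3 libraries of poly(A) RNA, named here by group and by a replicate number that follows the order of deposit and pairs no libraries. The sources used here do not give how the endothelial cells were taken from the device, the age and sex of the rats, or whether libraries share an animal. P-values therefore measure only the spread between these libraries, which may be technical.

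Hepatocytes export most of the protein of blood plasma. Albumin (Alb) keeps water in the vessels and carries fatty acids, transthyretin (Ttr) and retinol-binding protein (Rbp4) carry thyroid hormone and vitamin A, and transferrin (Tf) carries iron. During inflammation, interleukin-6 raises a set of acute-phase proteins in the liver, among them haptoglobin (Hp), fibrinogen (Fga, Fgb, Fgg), the acid glycoprotein Orm1 and, strongly in rats, the broad protease inhibitor A2m. The same cells hold the urea cycle and gluconeogenesis, and the nuclear receptor Hnf4a keeps many of these genes on.

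The promoters of 4 members show the kind of control region these genes carry. Alb and Tf are shown because their proportion varied between libraries, Orm1 because 1 library stood out for it, and Fgb as a fibrinogen chain with several liver motifs. Each line gives the 160 bases before the annotated start from RefSeq on the build GRCr8, 5′ to 3′ on the gene's strand. Capitals mark matches to motifs searched on both strands, namely TATAAA (the box near many gene starts), GTTAAT (core of the HNF1 site), TTNNGNAA (C/EBP site), CTGGGAA (interleukin-6 response element) and CAAAGTCCA (HNF4 site), and to TTCNNNGAA (STAT site), which can overlap each other.
Alb, chr14:17906980-17907139, minus strand: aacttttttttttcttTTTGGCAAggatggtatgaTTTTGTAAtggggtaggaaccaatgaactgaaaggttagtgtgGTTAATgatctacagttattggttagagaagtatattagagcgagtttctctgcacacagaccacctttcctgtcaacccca
Tf, chr8:112695377-112695536, minus strand: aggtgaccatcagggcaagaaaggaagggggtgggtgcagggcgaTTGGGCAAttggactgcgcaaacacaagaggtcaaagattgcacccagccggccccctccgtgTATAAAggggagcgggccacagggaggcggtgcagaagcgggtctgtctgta
Orm1, chr5:81788349-81788508, plus strand: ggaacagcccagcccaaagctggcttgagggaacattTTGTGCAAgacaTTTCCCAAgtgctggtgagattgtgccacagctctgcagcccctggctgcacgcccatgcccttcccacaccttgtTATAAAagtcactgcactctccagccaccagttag
Fgb, chr2:170700876-170701035, minus strand: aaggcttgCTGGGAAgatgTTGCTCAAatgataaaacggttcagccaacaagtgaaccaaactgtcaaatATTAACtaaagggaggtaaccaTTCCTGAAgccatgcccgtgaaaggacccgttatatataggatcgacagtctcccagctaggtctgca

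Of the 33 members, 27 had a promoter in that table, and 250 bases before the start were searched in each. The C/EBP letters stood in 17 of the 27, or 63.0%, against 36.8% of the promoters of all 27457 genes in the table. The HNF1 letters stood in 5 (Alb, F2, Fga, Fgb and Pck1), or 18.5%, against 6.46%. The interleukin-6 element stood in 8 (Ahsg, Fgb, Fgg, Itih4, Kng1, Serpinc1, Ttr and Vtn), or 29.6%, against 9.33%, and the STAT letters in 6, or 22.2%, against 7.52%. The letters of the first motif stood in 7, or 25.9%, against 13.1%, and the HNF4 letters in Cps1 alone, against 0.331%. These matches are descriptions of letters and not of binding. Several members are also neighbours in the genome, with Fgg, Fga and Fgb, Itih4 and Itih3, and Apoa1 and Apoc3 following each other with no protein-coding gene between them, and with Mug1l1 alone between A2m and Mug1.

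Library totals ran from 8925149 to 24025406 counts. They were 24025406, 17117840 and 8925149 in physiological replicates 1, 2 and 3 and 23754767, 23649036 and 11426299 in pathological replicates 1, 2 and 3. Genes with a count numbered 17230, 12861 and 10674 and then 16797, 13746 and 10261. For the label of the cells, 10 of 12 endothelial markers, all those matched, and 9 of 9 sinusoidal markers had counts in every library. The presence of counts does not settle the cell type, since markers of other liver cells had counts too. The endothelial list summed to 1338, 2876 and 2194 CPM at 1 mmHg and 826, 924 and 2511 CPM at 12 mmHg (CPM are counts scaled to a fixed library total, the unit of all levels below). Within it Tie1, an endothelial receptor, stood between 197 and 393 CPM. Albumin and transthyretin, which mark hepatocytes and are members, were also counted in every library. The summed level of the members, in the order of replicates 1, 2 and 3, was 282, 58364 and 50428 CPM at 1 mmHg and 507, 1047 and 84785 CPM at 12 mmHg. Each pressure thus had libraries below and above 10000 CPM, a limit set after seeing the values. The libraries above it had the smaller totals and fewer genes with a count. Their sample numbers in the labels were also higher, at 11, 22 and 23 against 2, 3 and 9. The part of these differences in the member sums was not tested. Members took between 0.0359% and 7.86% of all counts of a library. In such bulk RNA, fewer cells of a type and less RNA per cell cannot be told apart.

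The levels of 31 of the 33 members were higher in each of the 3 libraries with the larger sums than in any of the other 3, and the exceptions were A2m and A1bg. This is a description, since the libraries were divided by the members' own sum. The share of all genes with this pattern was not computed, so the count has no background beside it. The gap between the lowest of the former and the highest of the latter had a median of 37.2-fold, from 6.40-fold for Orm1 to 135-fold for the urea cycle gene Cps1. From the lowest to the highest library, member levels differed by a median of 536-fold over the 31 members with a count in every library. The share of a member in the summed member counts of its library differed by a median of 3.08-fold over the same 31 members, from 1.65-fold for Hp to 32.7-fold for Orm1. The proportions between members therefore varied far less than their levels.

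**Figure D1:**
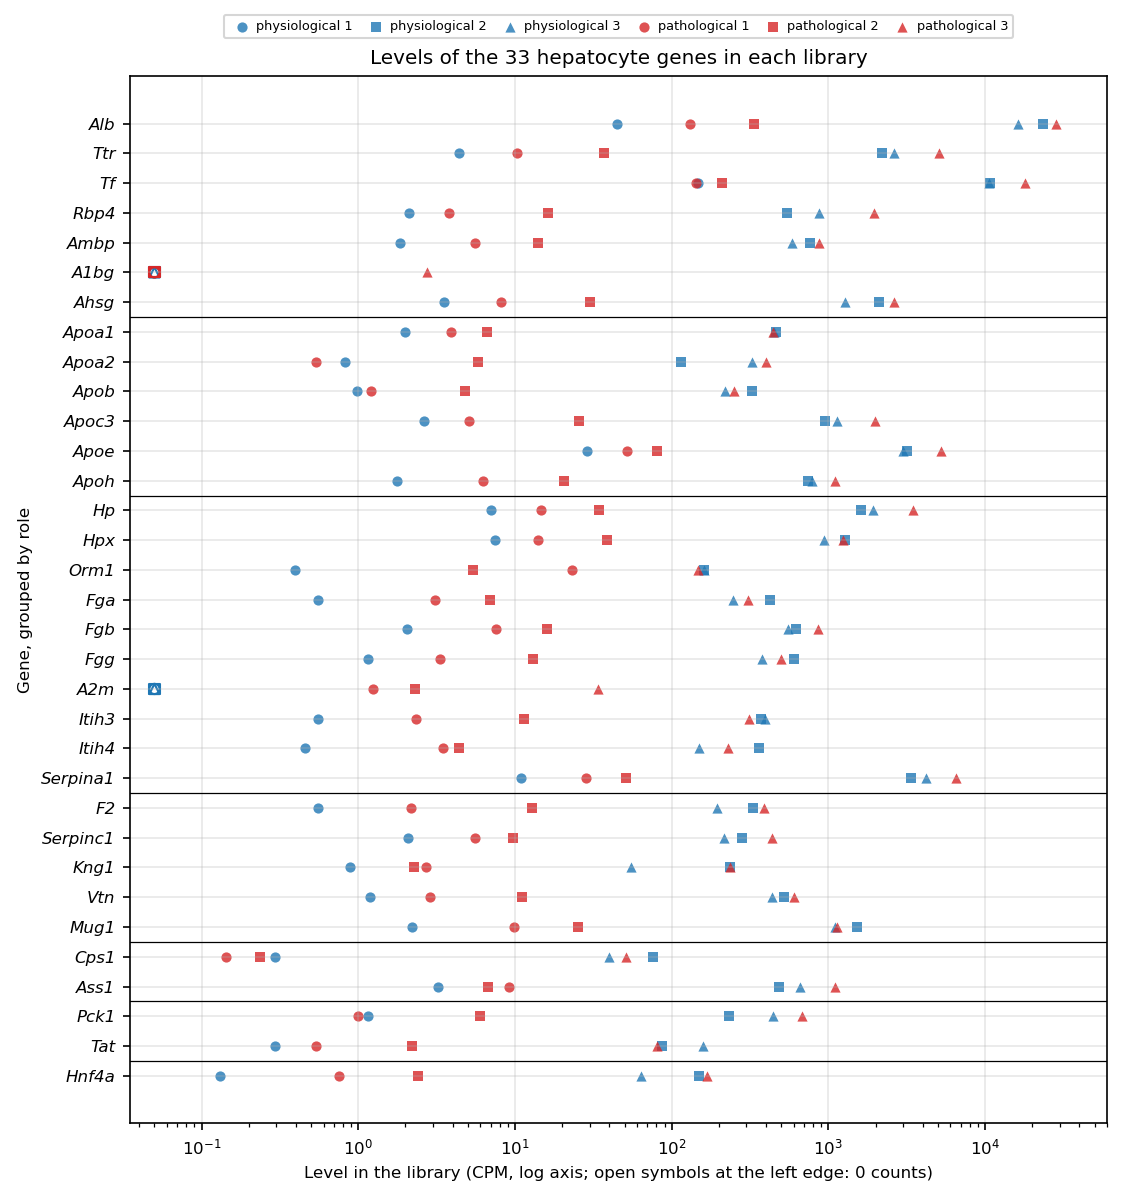
Level of each of the 33 genes (CPM, log axis) in each library, with genes grouped by role and open symbols at the left edge for 0 counts. Physiological 2, physiological 3 and pathological 3 lie to the right for 31 genes, A2m has counts in the pathological libraries alone, and A1bg has counts in pathological replicate 3 alone.

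The order of the leading genes was similar across libraries. Alb and Tf were the first 2 by count in every library and together held between 52.0% and 67.7% of the member counts. Counts favour long transcripts, so an order of genes by count is no order of RNA molecules. Across the 31 members, Pearson's r of log2 CPM between pairs of libraries ran from 0.825 to 0.966, with the highest value between physiological replicate 3 and pathological replicate 3. Those values describe genes within libraries, which are not independent replicates. The 4 lowest values were the pairs of pathological replicate 1 with physiological replicates 1 and 3 and pathological replicate 3, and of physiological replicate 1 with pathological replicate 2. Without Orm1 and Tf, chosen after their values were seen, r ran from 0.856 to 0.960, and the pair of physiological replicate 1 and pathological replicate 1 went from 0.848 to 0.902.

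Carriers and binding proteins made up the greater part of the member counts in every library, with 71.9%, 68.4% and 63.9% in physiological replicates 1, 2 and 3 and 59.6%, 61.3% and 67.1% in pathological replicates 1, 2 and 3. The groups overlapped, at 68.1% ± 3.99 and 62.7% ± 3.94 (SD, n = 3 each). Within this role the single genes moved more than the sum. Wilson intervals at 95% and exact binomial intervals below cover counting error only.

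Albumin (ENSRNOG00000002911) stood at 44.5, 23509 and 16208 CPM at 1 mmHg and 131, 336 and 28245 CPM at 12 mmHg, each in the order of replicates 1, 2 and 3. Its share of member counts was 15.8%, 40.3% and 32.1% at physiological and 25.9%, 32.0% and 33.3% at pathological pressure. Physiological replicate 1 was thus lowest on both measures, with a Wilson interval of 15.0% to 16.6% for the share.

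Transferrin (ENSRNOG00000030625) stood at 147, 10785 and 10665 CPM at 1 mmHg and 143, 209 and 18081 CPM at 12 mmHg. In the 3 libraries with small member sums, its level spanned 1.46-fold, while that of albumin spanned 7.54-fold. Its share was 51.9%, 18.5% and 21.1% in the physiological and 28.2%, 20.0% and 21.3% in the pathological libraries. Physiological replicate 1 had 329 Tf counts per 100 Alb counts (95% CI 310 to 350) and pathological replicate 1 had 109 (104 to 114), against 45.9 to 65.8 in the other 4 libraries. Those 2 libraries were the ones with more Tf than Alb counts. Against 100 Apoe counts there were 510, 341 and 358 of Tf at 1 mmHg and 275, 261 and 347 at 12 mmHg.

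The other carriers followed albumin more closely. Ttr stood at 4.42, 2212 and 2627 CPM at 1 mmHg and 10.3, 36.8 and 5112 CPM at 12 mmHg. It had 9.93, 9.41 and 16.2 counts per 100 Alb counts at physiological and 7.88, 11.0 and 18.1 at pathological pressure, and was highest against albumin in physiological replicate 3 and pathological replicate 3. Its partner Rbp4 had between 24.6 and 47.4 counts per 100 Ttr counts over the 6 libraries, while the Rbp4 level itself spanned 935-fold. Ambp, the precursor of a small heme-binding protein and of the inhibitor bikunin, held between 0.650% and 1.33% of member counts. Ahsg (fetuin-A, which keeps calcium phosphate in solution) held between 1.24% and 3.59%. A1bg, a plasma glycoprotein, had 29 counts in pathological replicate 3 and 0 in the other 5 libraries. A limit for a count of 0 was set at 3 counts over the summed member counts. It allows a share of up to 0.0348% in physiological replicate 1 and up to 0.000296% in physiological replicate 2.

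**Figure D2:**
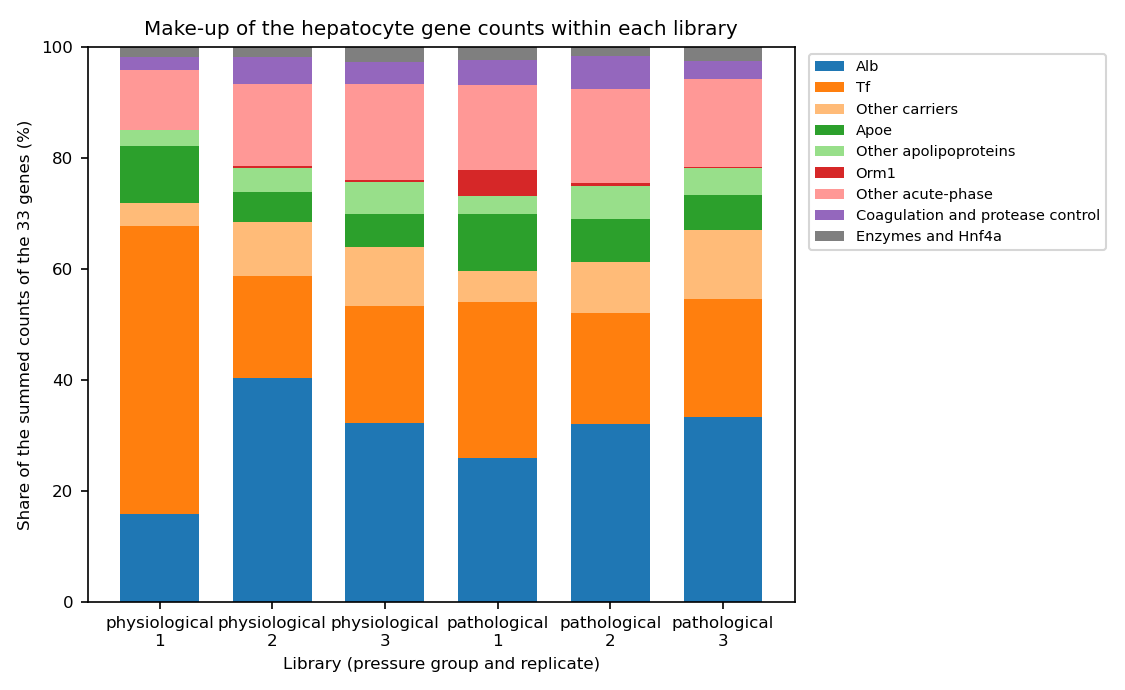
Share (%) of the summed counts of the 33 genes taken by Alb, Tf, Apoe, Orm1 and the other roles within each library, with bars that add to 100. Tf takes 51.9% in physiological replicate 1 and Orm1 takes 4.55% in pathological replicate 1, while Alb takes 32.0% to 40.3% in the libraries other than these 2.

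Apolipoproteins held 13.1%, 9.87% and 11.7% of member counts in the physiological and 13.6%, 13.7% and 11.1% in the pathological libraries, and the groups overlapped. Apoe (ENSRNOG00000018454) directs the uptake of lipoprotein remnants, and macrophages also make it. Apoe stood at 28.8, 3165 and 2979 CPM at 1 mmHg and 52.1, 80.2 and 5215 CPM at 12 mmHg. Its share was higher in the 3 libraries with small member sums, at 10.2%, 10.3% and 7.66%, than in the other 3, at 5.42%, 5.91% and 6.15%. Macrophage markers summed to 462, 506 and 41.9 CPM in those 3 libraries, equal to 163%, 99.9% and 4.00% of the member sum, and to between 1007 and 1515 CPM in the other 3, between 1.79% and 2.24% of it. Their part in the Apoe share was not tested.

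Apoa1, the main protein of high-density lipoprotein, held a share of 0.521% to 0.892%, with levels of 463, 450 and 442 CPM in the 3 libraries with large member sums. Apoc3, an inhibitor of lipoprotein lipase that neighbours Apoa1, had 131, 205 and 253 counts per 100 Apoa1 counts in the physiological and 129, 386 and 450 in the pathological libraries. The ratio of these neighbours thus spanned more than the retinol pair did, and it was lowest in physiological replicate 1 and pathological replicate 1. Apoa2, a second protein of high-density lipoprotein, varied by 6.17-fold in share, from 0.105% in pathological replicate 1, on 15 counts, to 0.650% in physiological replicate 3. Apob, the scaffold of very-low-density lipoprotein, varied by 2.33-fold and the phospholipid-binding Apoh by 3.15-fold.

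The acute-phase role held 10.8%, 15.0% and 17.7% of member counts in the physiological libraries and 19.9%, 17.5% and 16.1% in the pathological libraries. The groups overlapped, at 14.5% ± 3.47 and 17.8% ± 1.95 (SD, n = 3 each). In physiological replicate 1, Tf took 51.9% of the member counts, which lowers the shares of other genes there and so the physiological mean. Shares without Tf in the total were not computed. Hp, which binds free hemoglobin, had the steadiest share of all members with a count in every library, from 2.47% to 4.07%. Serpina1, the inhibitor of neutrophil elastase, ranged from 3.85% to 8.27%, highest in physiological replicate 3 and pathological replicate 3. Hpx, which binds free heme, ranged from 1.46% in pathological replicate 3 to 3.68% in pathological replicate 2.

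The 3 fibrinogen chains, whose genes lie side by side, form 1 clotting protein. Against 100 counts of Fgb there were 27.4, 68.1 and 44.7 counts of Fga in the physiological and 40.8, 43.1 and 35.5 in the pathological libraries. For Fgg the values were 56.5, 97.6 and 68.4 and then 43.7, 81.5 and 57.5. Physiological replicate 2 was highest for both ratios, and its interval for Fga, 66.1 to 70.2, lay above those of the other 5 libraries. The inhibitor heavy chains Itih3 and Itih4, also neighbours, stood at 121, 104 and 261 Itih3 counts per 100 Itih4 counts at 1 mmHg and 68.0, 259 and 138 at 12 mmHg, lowest in pathological replicate 1.

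Orm1 (ENSRNOG00000007886), the alpha-1 acid glycoprotein, departed from the shared proportions in 1 library. It stood at 0.393, 161 and 162 CPM at 1 mmHg and 23.1, 5.42 and 148 CPM at 12 mmHg. Pathological replicate 1 had 648 Orm1 counts, more than the 115 in pathological replicate 2, although its albumin level was lower. Its share there was 4.55% (4.22% to 4.91%), against 0.139% to 0.518% in the other 5 libraries. Against 100 Alb counts there were 17.6 of Orm1 (95% CI 16.2 to 19.1) in that library, 1.62 in pathological replicate 2 and between 0.523 and 0.998 in the remaining 4. Without Orm1 in the total, the acute-phase share of pathological replicate 1 was 16.1%, within the 10.7% to 17.4% of the others.

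A2m (ENSRNOG00000028896), a protease inhibitor of the rat acute phase, had 0 counts in each physiological library and 35, 49 and 359 counts in pathological replicates 1, 2 and 3. In CPM these were 1.25, 2.31 and 33.9. Per member count the order was different, at 0.246% (0.177% to 0.342%), 0.221% (0.167% to 0.292%) and 0.0400% (0.0360% to 0.0443%), so A2m was a larger part of the hepatocyte genes in the 2 pathological libraries with small member sums. A count of 0 allows a share of up to 0.0348% in physiological replicate 1, 0.000296% in physiological replicate 2 and 0.000844% in physiological replicate 3. The limit in physiological replicate 1, the one physiological library with a small member sum, is close to the share in pathological replicate 3 and below those in pathological replicates 1 and 2. The Wilson interval of physiological replicate 1 reaches 0.0445%, above the share in pathological replicate 3, so those libraries cannot be told apart by share.

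Among the 32 tested members, A2m was the 1 whose share was higher in every pathological library than in any physiological library, a pattern of 0.149% of the 12742 genes set against the member counts in the same way. A2m passed the low-count filter only through the pathological libraries, so this is a description and not support. Cps1 was the 1 member with the opposite pattern, which 0.188% of all genes had. Summed member counts ran from 8619 to 1013124 in physiological replicates 1 and 2. Genes that do not follow the members therefore tend to overlap when set against them. These percentages thus do not show that the A2m or the Cps1 pattern is rare. The related inhibitor Mug1 (murinoglobulin) showed neither pattern, with 0.777%, 2.63% and 2.20% of member counts at 1 mmHg and 1.94%, 2.40% and 1.34% at 12 mmHg. Its expected counts were not whole numbers, so reads were divided with near-identical genes and its values are uncertain.

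**Figure D3:**
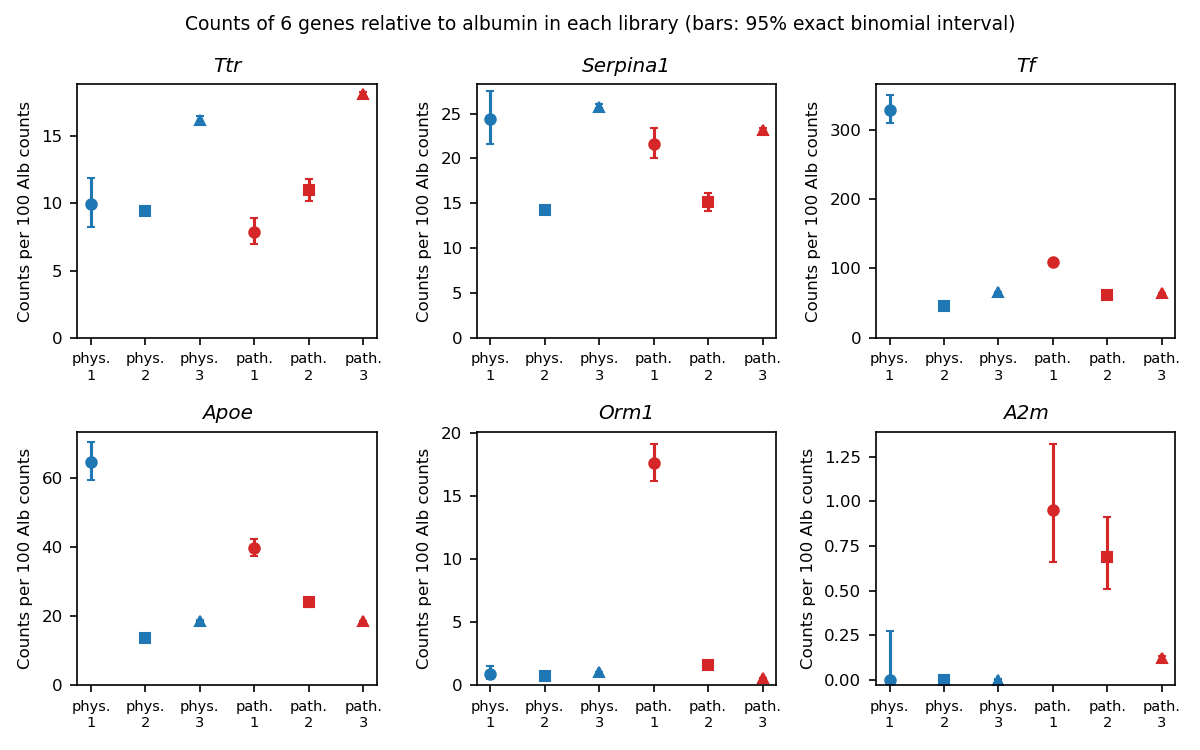
Counts of Ttr, Serpina1, Tf, Apoe, Orm1 and A2m per 100 counts of Alb in each library (linear axes that differ between panels, bars are 95% exact binomial intervals for counting error). Tf is highest in physiological replicate 1 at 329, Orm1 in pathological replicate 1 at 17.6, and A2m is at 0 in the physiological libraries.

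Clotting factors and protease control genes held 2.44%, 4.97% and 3.99% of member counts in the physiological and 4.56%, 5.81% and 3.30% in the pathological libraries. The 2.44% of physiological replicate 1 is lowered by Tf, which took 51.9% of the member counts there. F2 (prothrombin) was highest in share in pathological replicate 2 at 1.22% and lowest in physiological replicate 1 at 0.197%, on 17 counts. Its inhibitor Serpinc1 (antithrombin) ranged from 0.426% in physiological replicate 3 to 1.10% in pathological replicate 1. Kng1 (kininogen, the source of bradykinin) was low in physiological replicate 3, with 0.342 counts per 100 Alb counts (0.308 to 0.377), against 0.675 to 2.07 in the other 5 libraries. The deposited symbol Kng1 also stands for closely related rat kininogens in the RefSeq names, so these reads may not belong to 1 gene. Vtn (vitronectin, an adhesive plasma protein) ranged from 0.418% to 1.05%.

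Both urea cycle genes were higher in the 3 libraries with large member sums, and their ratio varied. Ass1, which makes argininosuccinate, stood at 3.21, 481 and 656 CPM at 1 mmHg and 9.22, 6.70 and 1106 CPM at 12 mmHg. Cps1, the mitochondrial enzyme that starts the cycle, stood at 0.295, 76.3 and 39.7 CPM and at 0.142, 0.236 and 51.4 CPM, on 9, 4 and 5 counts in physiological replicate 1 and pathological replicates 1 and 2. Its share of member counts was 0.104%, 0.131% and 0.0788% at physiological and 0.0281%, 0.0225% and 0.0607% at pathological pressure, so the shares of the groups did not overlap while the CPM levels did. The Wilson interval of physiological replicate 1, 0.0549% to 0.198%, contained the share of pathological replicate 3. Against 100 counts of Cps1 there were between 630 and 1651 of Ass1 in the physiological and between 2150 and 6475 in the pathological libraries, with an interval of 2499 to 23944 for the last. The interval of physiological replicate 1, 551 to 2452, contained the 2150 of pathological replicate 3. That of pathological replicate 2, 1189 to 8881, contained the 1651 of physiological replicate 3.

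The glucose and amino acid enzymes held at most 1.19% of member counts. Pck1, which commits carbon to gluconeogenesis, stood at 1.15, 233 and 444 CPM at 1 mmHg and 0.997, 5.99 and 674 CPM at 12 mmHg. Tat, a glucocorticoid-induced enzyme of tyrosine breakdown, stood at 0.295, 86.5 and 158 CPM and at 0.534, 2.22 and 80.2 CPM. Pathological replicate 3 combined the highest Pck1 level with a Tat level below both high physiological libraries. It had 841 Pck1 counts per 100 Tat counts (783 to 904), against 269 and 282 in physiological replicates 2 and 3. The ratio was between 187 and 389 in the 3 libraries with small member sums. The 389 of physiological replicate 1 rested on 9 Tat counts, and its interval of 183 to 920 contained 841.

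Hnf4a, the transcription factor among the members, stood at 0.131, 150 and 63.6 CPM at 1 mmHg and 0.748, 2.41 and 168 CPM at 12 mmHg, with 4 counts in physiological replicate 1. It had 0.294, 0.640 and 0.392 counts per 100 Alb counts at physiological and 0.571, 0.717 and 0.596 at pathological pressure. The regulator spanned 1284-fold in level, and the interval of 0.0801 to 0.755 per 100 Alb counts in physiological replicate 1 covers all 6 ratios.

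**Figure D4:**
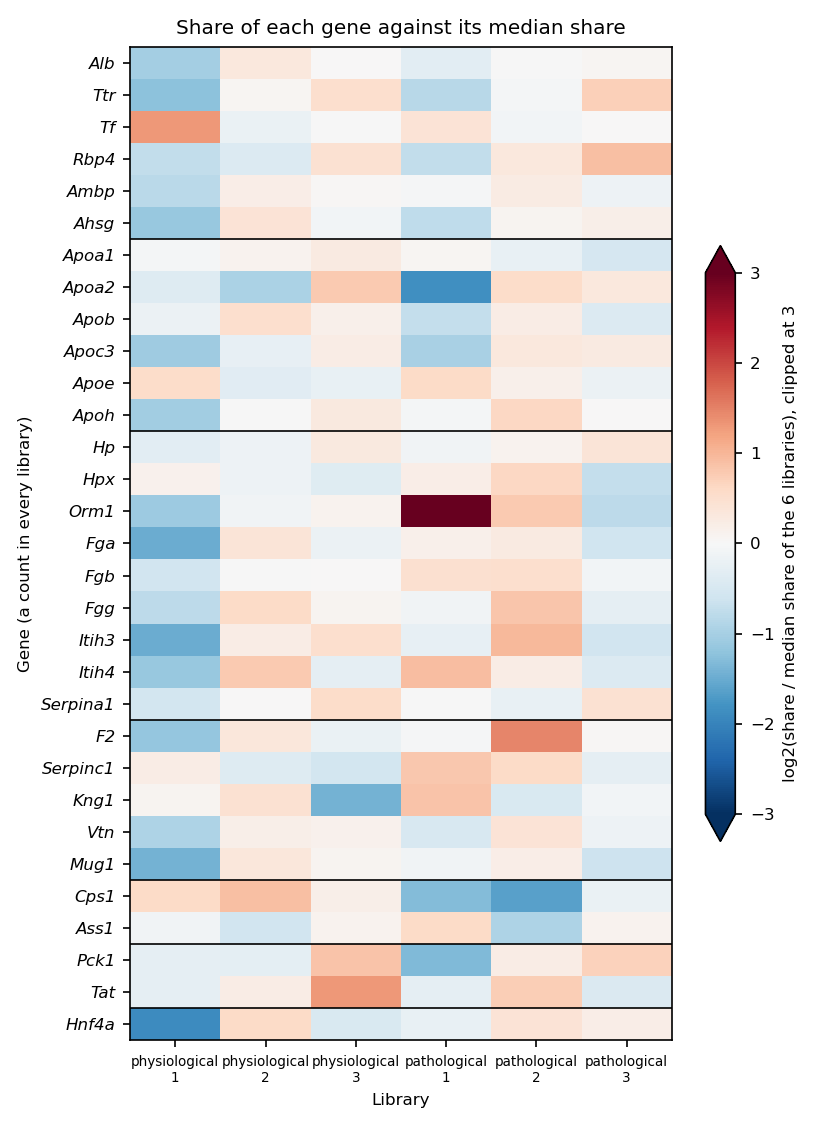
Share of each of the 31 members with a count in every library, as log2 of the share over its median share of the 6 libraries (colour, clipped at 3). Orm1 in pathological replicate 1 and Tf in physiological replicate 1 are raised, while Fga, Itih3, Mug1 and Hnf4a are reduced in physiological replicate 1. Tf took 51.9% of the member counts of physiological replicate 1, which lowers the shares of other genes there. Fga, Itih3 and Hnf4a had 17, 17 and 4 counts in it.

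No member passed the test of 12 mmHg against 1 mmHg. The quasi-likelihood test of edgeR with Benjamini-Hochberg adjustment called 0 of 32 members and 0 of the 12742 genes (0%) at the threshold of 0.05. Without adjustment, 33 genes lay under 0.05. The limma-voom fit called 0 genes. DESeq2 called 41 genes, none of them among the 26 members to which it gave an adjusted p, and gave none to 7 members, A2m, Tf, Apoe, Apoh, Fgb, Itih3 and Apoa1. A2m was the 1 member under 0.05 without adjustment, where 0.0549% of all genes lay on the higher and 0.204% on the lower side. A2m was also the 1 member whose CPM did not overlap between the groups, where 4.61% of all genes did not, 1.56% higher and 3.05% lower at 12 mmHg. Nothing is read from either for A2m, since its counts in 1 group alone carried it past the filter, and its fitted log2 fold change depends on the prior count. Without pathological replicate 3, 30 of 32 members lay under 0.05 without adjustment, where 5.81% of all genes did, and 0 passed the adjusted threshold. Both pathological libraries left in that fit had small member sums, and 31 of the 32 fold changes were negative. The members rose and fell together between libraries, so these are not separate results.

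Fold changes of the other members were small against their errors. For albumin the log2 fold change of pathological against physiological was -0.47 (95% CI -5.39 to 4.45), at 13254 ± 12008 and 9571 ± 16173 CPM (SD, n = 3 each). For Ttr it was 0.09 (-4.97 to 5.15), for Tf -0.23 (-4.63 to 4.17), for Apoe -0.21 (-4.49 to 4.08) and for Orm1 -0.87 (-4.78 to 3.03). The other fitted values ran from -1.56 for Tat to 0.49 for Rbp4. Over the 32 members, 28 fold changes were negative and 4 positive with a median of -0.39, beside a median of 0.05 over all genes. The sign of the members' median turned, to 0.11 without physiological replicate 2, to 0.18 without pathological replicate 1 and to 0.15 without pathological replicate 2, and the median was -5.50 without pathological replicate 3. Measured against the summed member counts of each library, it was 0.18, with 25 members positive and 7 negative.

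Other hepatocyte genes, from lists that hold none of the 33, were compared in the same libraries. A list of 36 tested plasma protein genes had 13 positive and 23 negative fold changes and 0 past the threshold. It summed to between 14.1% and 17.4% of the member sum in every library, a sum to which single genes of the list need not conform. Gc, the vitamin D carrier, stood at 6.06, 2581 and 2335 CPM at 1 mmHg and 18.3, 20.0 and 3453 CPM at 12 mmHg. Apoc1, a small apolipoprotein, stood at 1.31, 843 and 1475 and at 3.81, 27.0 and 2767 CPM. Apof, an apolipoprotein, departed from this, since pathological replicate 3 had 0.0944 CPM of it against 12.2 to 16.7 CPM in physiological replicates 2 and 3.

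Enzymes outside the members split between genes that followed them and genes that did not. In the list of urea cycle and amino acid enzymes, 8 of the 21 tested were positive and 13 negative, with 0 past the threshold. Hpd and Bhmt, of tyrosine and betaine metabolism, spanned 1.77 to 1482 and 1.80 to 1979 CPM, lowest in physiological replicate 1 and highest in pathological replicate 3, as the member sum was. Asl, the enzyme after Ass1 in the urea cycle, stood between 44.1 and 111 CPM in all 6 libraries, and the transaminase Got1 between 26.0 and 105 CPM. In the glucose list 3 of 12 were positive and 9 negative with 0 past the threshold. Fbp1, an enzyme of gluconeogenesis, reached from 0.393 to 244 CPM. Pck2, the mitochondrial form of Pck1, stood at 30.3, 18.4 and 19.9 CPM and at 15.6, 2.12 and 13.4 CPM, with no overlap between the groups. It was the 1 of the 12 with no overlap, and 3.05% of all genes were lower at 12 mmHg in this way. The glucose transporter Slc2a2 had 0 CPM in pathological replicates 1 and 2.

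The list of other acute-phase genes joins plasma proteins with receptors and regulators of the response. In it, 7 of 16 tested genes were positive and 9 negative with 0 past the threshold, and its sum equalled 308%, 136% and 39.3% of the member sum in the 3 libraries with small sums and 2.97% to 3.49% in the others. Of its 16 genes, 8 were higher in each library with a large member sum than in any other. The share of all genes that were so was not computed. Crp, the C-reactive protein, stood at 0.524, 258 and 272 CPM at 1 mmHg and 1.78, 2.50 and 318 CPM at 12 mmHg. The receptor subunit Il6st, through which interleukin-6 signals, stood at 329, 14.3 and 2.55 CPM at 1 mmHg and 224, 89.3 and 0.944 CPM at 12 mmHg, and the transcription factor Stat3 reached from 47.0 to 221 CPM. Crp, Il6st and Stat3 were chosen after their values were seen. C3, the central complement protein, stood at 21.2, 1089 and 629 CPM at 1 mmHg and 15.3, 11.6 and 984 CPM at 12 mmHg. Saa4, a constitutive serum amyloid, stood at 23.2, 178 and 295 and at 35.9, 76.5 and 488 CPM. Socs3, a feedback inhibitor that interleukin-6 induces, stood at 11.8, 0.288 and 0.568 CPM at 1 mmHg and 9.79, 19.7 and 12.2 CPM at 12 mmHg, with overlapping groups. Lbp, which binds bacterial lipopolysaccharide, stood at 4.87 ± 3.98 and 1.77 ± 2.65 CPM (SD, n = 3 each).

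Among further hepatocyte transcription factors, 3 of 8 tested genes were positive and 5 negative with 0 past the threshold. Cebpa stood at 14.5, 67.1 and 23.6 CPM at 1 mmHg and 37.1, 9.53 and 126 CPM at 12 mmHg, a narrower range than that of Hnf4a. The xenobiotic receptor Nr1i3 was at 0 in physiological replicate 3 and pathological replicate 2. The bile acid receptor Nr1h4 stood at 0.229, 25.2 and 103 and at 0.356, 1.56 and 84.5 CPM. The list of fetal and dedifferentiation genes had 1 of 10 positive and 9 negative with 0 past the threshold. Krt8 and Krt18, the keratins of hepatocytes, stood at 61.1 ± 51.1 and 52.0 ± 43.9 CPM at physiological and at 27.0 ± 40.7 and 46.2 ± 76.1 CPM at pathological pressure (SD, n = 3 each). The bile duct keratin Krt19 stood at 0.164, 38.8 and 13.2 CPM and at 0.498, 0.660 and 0 CPM, and Sox9 at 0.164, 3.11 and 9.65 and at 0.463, 0.330 and 0 CPM, so pathological replicate 3 had 0 counts of both.

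**Figure D5:**
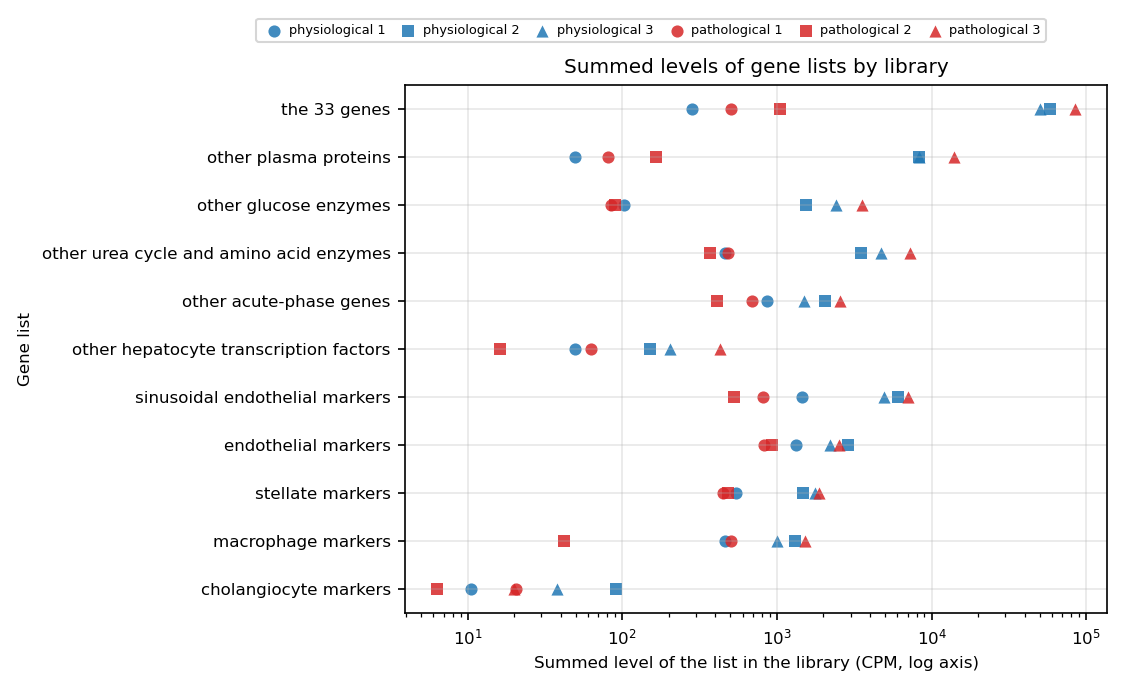
Summed level (CPM, log axis) of the 33 genes and of 10 other gene lists in each library. The 33 genes run from 282 to 84785 CPM and the plasma protein list lies lower, from 49.2 to 13881 CPM. On the log axis their spans are alike, while endothelial, stellate and macrophage marker lists span less. Each list other than the cholangiocyte one, the endothelial list included, is higher in physiological replicates 2 and 3 and pathological replicate 3.

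Sums of endothelial, sinusoidal, stellate and macrophage markers were higher in the 3 libraries with large member sums, and the cholangiocyte sum was not. Among single markers this held for 5 of 10 matched endothelial, 6 of 9 sinusoidal, 6 of 12 stellate, 7 of 12 macrophage and 0 of 6 cholangiocyte genes. The share of all genes for which it held was not computed. The summed sinusoidal markers stood at 1457, 6088 and 4929 CPM at 1 mmHg and 809, 525 and 7073 CPM at 12 mmHg. Stellate markers summed to 546, 1472 and 1764 and to 445, 484 and 1882 CPM, with the retinol-storing enzyme Lrat at 1.11, 602 and 657 and at 2.24, 8.21 and 919 CPM. Of the 12 stellate markers, Pdgfrb and Acta2 were at 0 in pathological replicate 3, and Rgs5 and Ngfr were at 0 there and in other libraries. Of the 12 macrophage markers, Timd4 was at 0 in all 6 libraries and Adgre1 in pathological replicate 2. Macrophage markers were at 41.9 CPM in pathological replicate 2 and between 462 and 1515 CPM elsewhere, and hemoglobin genes and other erythroid markers summed to at most 1.27 CPM in the 3 libraries with small member sums and to 57.8, 303 and 169 CPM in the others. Cholangiocyte markers summed to 10.5, 91.5 and 38.0 CPM at 1 mmHg and 20.6, 6.37 and 19.8 CPM at 12 mmHg. The part of these cells in the member values was not tested.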

How the data were processed

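Poly(A) RNA of 6 libraries was sequenced single-end, per the labels' protocols. The authors deposited expected counts per gene, estimated reads before normalization, per the file headers. The submitters' processing notes name the tools STAR, RSEM and limma. The sources used here do not give their versions or roles, the genome build, the annotation or the use of strand. Between 4.33% and 10.4% of values per library were not whole, since reads matching several genes were divided, so near-identical, overlapping and antisense genes are uncertain.

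Counts were rounded and compared with the quasi-likelihood test of edgeR 4.0.16 in R 4.3.3 (TMM scaling, filterByExpr, no covariate, all 12742 genes left by the filter, Benjamini-Hochberg threshold 0.05, two-sided). Levels are CPM on TMM-scaled totals. Shares used summed member counts, with Wilson or exact binomial intervals at 95% from scipy 1.17.1. Counts of every pair of libraries differed by more than sampling noise (chi-square over degrees of freedom of 74.9 or more).

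The members and gene lists were chosen with earlier results of these data known. Named genes are the members and, of each further list, the 2 with the highest mean CPM and the 2 with the smallest unadjusted p; Lrat, Pdgfrb and Acta2 came from this rule. Some genes that the rule names are not reported here. Of the list symbols, 211 matched by symbol, 5 through RefSeq names of another assembly, and 8 were not matched. Alternatives were other scaling, filters, DESeq2 1.42.0, limma-voom 3.58.1, a term for hepatocyte content, other totals for shares and leaving out each library. The test was checked on simulated counts for this comparison: with dispersion 0.05, 100% of 67 genes changed 4-fold were found, with 9 false calls among 14215 genes, and at the dispersion of the 6 libraries 0 of 66 changed 16-fold among 13266 genes.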

Additional observations from a re-analysis of the deposited data

How the results depend on the processing

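The count of genes past the threshold stayed at 0 under each edgeR alternative and limma-voom and was 41 with DESeq2; leaving out 1 library gave 0 to 0. The members' median log2 fold change turned to 0.18 with summed member counts as library size and to 0.69 with a term for hepatocyte content, and ran from -5.50 to 0.18 with 1 library left out (0.11, 0.18 and 0.15 without physiological replicate 2, pathological replicate 1 and pathological replicate 2). With summed member counts, Alb, Apoe and Orm1 turned to 0.049, 0.16 and 2.83, and with the hepatocyte term Alb, Apoe, Orm1 and Tat turned to 0.72, 0.39, 1.71 and 0.017. With limma-voom Ttr, Rbp4 and Orm1 turned to -1.25, -1.21 and 1.77. With 1 library left out, Alb ran from -5.81 to 0.27, Ttr from -6.08 to 0.67, Tf from -5.33 to 0.34, Apoe from -4.94 to 0.36 and Rbp4 from -5.53 to 1.26, each changing sign. The sign of A2m, with 0 counts in 1 group, was fixed under any setting.

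Without Alb in the total, the acute-phase share was 12.8%, 25.2% and 26.0% in physiological replicates 1, 2 and 3 and 26.9%, 25.8% and 24.1% in pathological replicates 1, 2 and 3, and the Tf share 61.6%, 30.9% and 31.2% and 38.1%, 29.4% and 32.0%. Without Apoe, the acute-phase share was 12.0%, 15.9% and 18.8% and 22.2%, 18.98% and 17.1%, and the Tf share 57.8%, 19.5% and 22.5% and 31.5%, 21.6% and 22.7%. These shifts follow from the smaller totals. Unrounded counts moved the acute-phase and Tf shares by less than their intervals. The cause of the other changes was not tested. No paired analysis was possible because the labels give the groups no shared replicate numbers: the sample numbers differ between them, and replicates 1 to 3 are only names in the order of deposit. Low counts limit Cps1, with 9, 4 and 5 in the libraries with small member sums, among other members with few counts there. Those libraries had the larger totals, between 23649036 and 24025406 counts.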
